A study of Mus musculus with 4 samples.

Results

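Striated muscle miRNAs were followed in exosomes from small intestinal epithelium (SI-Exos) and from serum. The members were the rows named mmu-miR-1a-3p, mmu-miR-133a-3p and mmu-miR-206-3p, taken by name from both deposited tables, so 3 of 668 miRNAs listed in either table. The small RNA libraries were 18m-SI-Exos, 3m-SI-Exos, 18m-serum-exos and 3m-serum-exos, from male C57BL/6J mice of 18 or 3 months of age on standard chow, with no treatment named and 1 library per group. With 1 library per group no difference has a replicate check, and the sources used here do not give how many mice a library holds. Exosomes were pelleted by ultracentrifugation. For SI-Exos these came from the suspension shaken off everted, EDTA-treated gut segments, whose fluid was cleared of cells and filtered.

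miR-1 and miR-133a are the most abundant miRNAs of skeletal and heart muscle, where they are cut from shared primary transcripts switched on by MyoD, MEF2 and SRF. miR-1 favours differentiation of myoblasts and miR-133 their proliferation. miR-206 is largely restricted to skeletal muscle, rises during its regeneration and promotes repair of the nerve and muscle contact. All 3 are found in blood, within vesicles and bound to proteins, and their serum levels are used as markers of muscle damage.

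The seed, bases 2 to 8 of a miRNA, sets most of its target choice. miR-206-3p and miR-1a-3p share the seed GGAAUGU and are equal at 18 of 22 positions, and miR-133a-3p has the unrelated seed UUGGUCC, which miR-133b-3p also carries. No other of the 663 miRNAs with a mature sequence in the tables has either seed. The mature sequence of miR-206-3p is shown since it alone of the members was matched by name in the sequence source used. Those of miR-499-5p and miR-208a-3p are shown since they are the heart and slow fibre miRNAs set beside it below. Capitals mark the seed, and the sequences are from RefSeq (GRCm38.p6), whose table was matched by name for 1 of the 3 members.
mmu-miR-206-3p: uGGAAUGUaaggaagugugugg
mmu-miR-499-5p: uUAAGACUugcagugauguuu
mmu-miR-208a-3p: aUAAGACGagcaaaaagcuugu

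The gene Mir206 lies on chromosome 1 of GRCm38 from 20679010 to 20679082, on the plus strand, and Mir133b begins 3686 bases after its end. Both overlap an annotated exon of the long non-coding RNA gene Gm28653. Mir1a-1 lies on chromosome 2 from 180389048 to 180389124 and Mir133a-2, its partner, from 180398379 to 180398482, both on the plus strand and within no other annotated gene. Mature miR-1a-3p and miR-133a-3p also come from a second gene each, whose position is not used here.

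The libraries held 71353 miRNA reads in 18m-SI-Exos and 212215 in 3m-SI-Exos, against 778237 in 18m-serum-exos and 832002 in 3m-serum-exos. Reads are given as CPM, counts scaled to the summed miRNA reads of the library, in which 1 read is 14.0, 4.71, 1.28 and 1.20 CPM in that order of libraries. Exact Poisson 95% intervals stand beside the levels and exact (Clopper-Pearson) 95% intervals beside ratios and shares. Both cover counting error only, and PCR reads without molecular identifiers are not independent molecules. Of 8 miRNAs typical of intestinal epithelium, 7 were detected in 18m-SI-Exos and 8 in 3m-SI-Exos, with a summed level of 82603 and 267248 CPM, against 6603 and 16850 CPM in 18m-serum-exos and 3m-serum-exos, where all 8 were detected. The epithelial miRNA at 0 reads in 18m-SI-Exos was miR-200b-3p. These sums count only 1 arm of each miRNA, and some other arms went the opposite way in SI-Exos, as given below.

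miR-1a-3p was the leading member in every library. It had 69 reads and 967 CPM (752 to 1224) in 18m-SI-Exos, against 1002 reads and 4722 CPM (4434 to 5023) in 3m-SI-Exos. In serum exosomes it had 4870 reads and 6258 CPM (6083 to 6436) at 18 months, against 5445 reads and 6544 CPM (6372 to 6721) at 3 months. The 18m-SI-Exos library thus stood below the other 3 libraries, and the 2 serum libraries lay close together at the top. By abundance miR-1a-3p ranked 64 of 258 detected miRNAs in 18m-SI-Exos and 30 of 326 in 3m-SI-Exos, and 25 of 496 and 22 of 486 in serum exosomes at 18 and 3 months.

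miR-133a-3p had 26 reads and 364 CPM (238 to 534) in 18m-SI-Exos, against 9 reads and 42.4 CPM (19.4 to 80.5) in 3m-SI-Exos. In serum exosomes it had 152 reads and 195 CPM (165 to 229) at 18 months, against 142 reads and 171 CPM (144 to 201) at 3 months. Its order over the libraries differed from that of miR-1a-3p, with 18m-SI-Exos highest and 3m-SI-Exos lowest, and the intervals of the 2 serum libraries overlapped. The top place of 18m-SI-Exos holds by CPM but not under every scaling, as given below.

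miR-206-3p had 13 reads and 182 CPM (97.0 to 312) in 18m-SI-Exos, against 8 reads and 37.7 CPM (16.3 to 74.3) in 3m-SI-Exos. In serum exosomes it had 638 reads and 820 CPM (757 to 886) at 18 months, against 211 reads and 254 CPM (221 to 290) at 3 months. 18m-serum-exos was the highest library and 3m-SI-Exos the lowest, while the intervals of 3m-serum-exos and 18m-SI-Exos overlapped. These counts in SI-Exos are small, and the intervals there are wide.

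**Figure D1:**
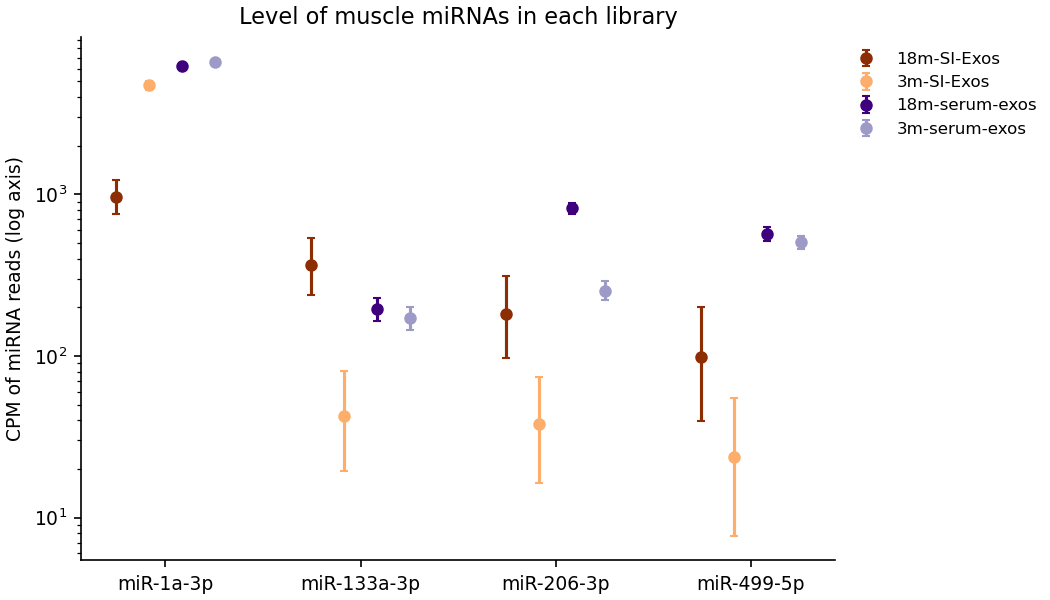
Level of the 3 members and of miR-499-5p in each library, in CPM on a log axis, with points for the single library of each group and bars for the exact Poisson 95% interval. By CPM miR-1a-3p is lowest in 18m-SI-Exos (967 CPM), whereas miR-133a-3p is highest there (364 CPM). That top place of miR-133a-3p does not hold under every scaling.

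The first comparison asked how the miRNAs of SI-Exos differ between old and young mice. In 18m-SI-Exos miR-1a-3p was lower, and both miR-206-3p and miR-133a-3p were higher, than in 3m-SI-Exos. Measured here means 10 or more reads in either library of a pair. A call needed a CPM ratio of 2-fold or more (or 0 reads on either side) whose interval did not contain 1. Such a call compares these libraries, not the ages. miR-1a-3p was 4.88-fold lower at 18 months (3.82 to 6.33). The level of miR-133a-3p at 18 months was 8.59-fold higher (3.90 to 20.8). For miR-206-3p the difference was 4.83-fold in the same direction (1.86 to 13.5). Vesicles carrying less of a miRNA and fewer vesicles from the cells that make it cannot be told apart in such samples.

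So 2 members were called higher and 1 lower at 18 months in SI-Exos, where 29.4% of the 214 measured miRNAs were called higher and 32.7% lower. Calls in each direction are thus common in this pair of libraries. The median log2 ratio of all measured miRNAs was -0.45 (with 0.5 reads added to each count), and relative to this median miR-1a-3p was at -1.84, miR-133a-3p at 3.56 and miR-206-3p at 2.73 on the log2 scale. miR-133a-3p ranked 26 and miR-206-3p 40 from the highest ratio, and miR-1a-3p ranked 58 from the lowest, of 214. With 9 and 8 reads in 3m-SI-Exos, miR-133a-3p and miR-206-3p reached the minimum of 10 reads only in 18m-SI-Exos. That library had 71353 miRNA reads, against 212215 in 3m-SI-Exos. A miRNA measured in this way is bound to have a higher CPM at 18 months and to be called higher by the CPM rule. The direction and call of both were thus set once they had passed in this way, and their rank was partly set. Their 2 calls are therefore no result to set beside the 29.4%. The ratio depends on the scaling, since miRNA reads were 0.411% of the library total behind the authors' RPM in 18m-SI-Exos and 1.14% in 3m-SI-Exos. By the authors' RPM, the ratio of 18 months to 3 months was 0.0738 for miR-1a-3p, 3.09 for miR-133a-3p and 1.74 for miR-206-3p (0.669 to 4.84), so that miR-206-3p was not called.

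In SI-Exos red blood cell markers were higher at 18 months, as were miR-133a-3p and miR-206-3p, whereas miR-1a-3p was lower. Of 5 miRNAs typical of red blood cells, 5 were detected in 18m-SI-Exos and 4 in 3m-SI-Exos, and their summed level was 37882 CPM at 18 months, against 6324 CPM at 3 months. miR-451a, which makes up nearly all of it, was 5.90-fold higher at 18 months (5.53 to 6.31). The part of blood vesicles in the higher miR-133a-3p and miR-206-3p was not tested. Of 4 smooth muscle miRNAs, 3 were detected in 18m-SI-Exos and 2 in 3m-SI-Exos, with a summed level of 33902 CPM at 18 months, against 75023 CPM at 3 months. Most of it was miR-143-3p, which was 2.28-fold lower in 18m-SI-Exos (2.18 to 2.38), while the ratio of miR-145a-5p was 1.56 (1.20 to 2.01), under the threshold. In the epithelial list 5 of 8 were lower in 18m-SI-Exos by the call rule and 0 higher, and the most abundant, miR-429-3p, was 5.10-fold lower (4.87 to 5.35). The part of smooth muscle and epithelial vesicles in the lower miR-1a-3p was not tested.

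**Figure D2:**
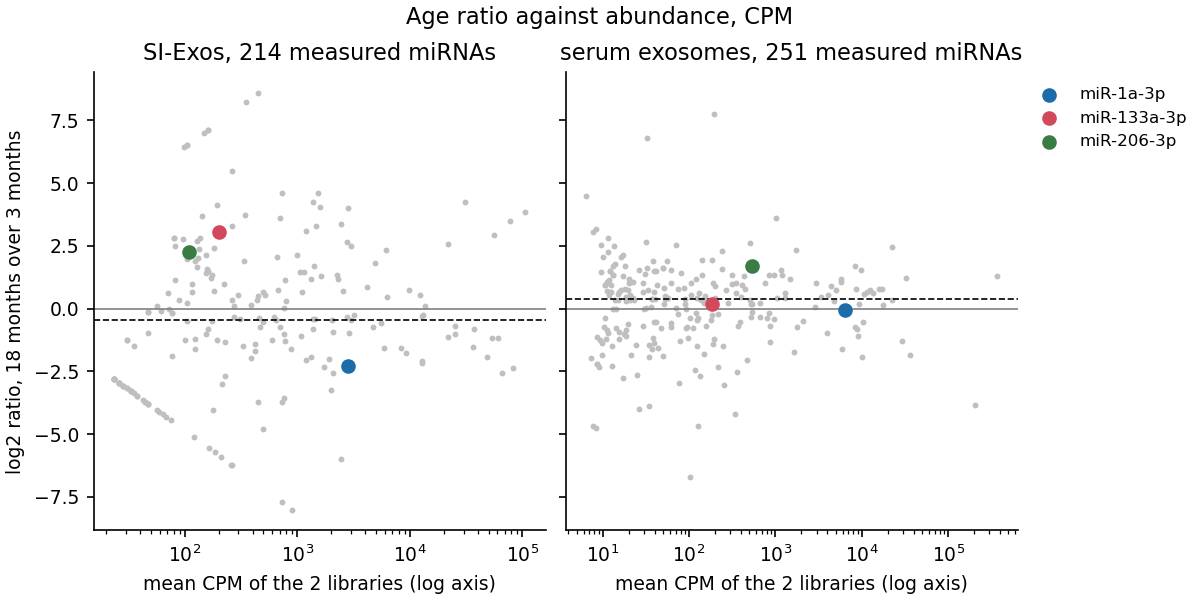
Log2 ratio of 18 months to 3 months against mean CPM (log axis) for every measured miRNA, 214 of them in SI-Exos and 251 of them in serum exosomes. Colour marks the 3 members and a dashed line the median of all (-0.45 and 0.38). In SI-Exos miR-1a-3p lies below and the other two above the median, and in serum exosomes miR-206-3p alone of the 3 lies above it.

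The second comparison was that of old and young mice in serum exosomes. Here miR-206-3p was the member that differed, at 3.23-fold higher in 18m-serum-exos (2.76 to 3.80), while miR-1a-3p and miR-133a-3p were not called. The ratio of 18 months to 3 months was 0.956 (0.920 to 0.994) for miR-1a-3p and 1.14 (0.904 to 1.45) for miR-133a-3p. Both intervals lie within 1.5-fold of an equal level. In serum exosomes 25.9% of the 251 measured miRNAs were called higher at 18 months and 18.3% lower. Relative to the median log2 ratio of 0.38, miR-206-3p was at 1.31, miR-133a-3p at -0.19 and miR-1a-3p at -0.45. miR-206-3p ranked 27 of 251 from the highest ratio, and miR-1a-3p ranked 96 from the lowest. The direction of miR-133a-3p turned with the scaling, and its ratio was 0.953 when the 5 most abundant miRNAs were left out of the totals.

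In this pair too the red blood cell miRNAs were higher at 18 months, with all 5 detected in both libraries and a summed level of 540212 CPM at 18 months, against 219814 CPM at 3 months. The liver's miR-122-5p was at 26509 CPM at 18 months, against 384405 CPM at 3 months. The smooth muscle list, with 3 of 4 detected in both libraries, summed to 17455 CPM at 18 months, against 42217 CPM at 3 months. These changes alter the totals that CPM divides by, and their part in the miR-206-3p result was not tested. Under the 5 other scalings used here, the ratio of miR-206-3p was between 2.69 and 3.23, and it was called under each.

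**Figure D3:**
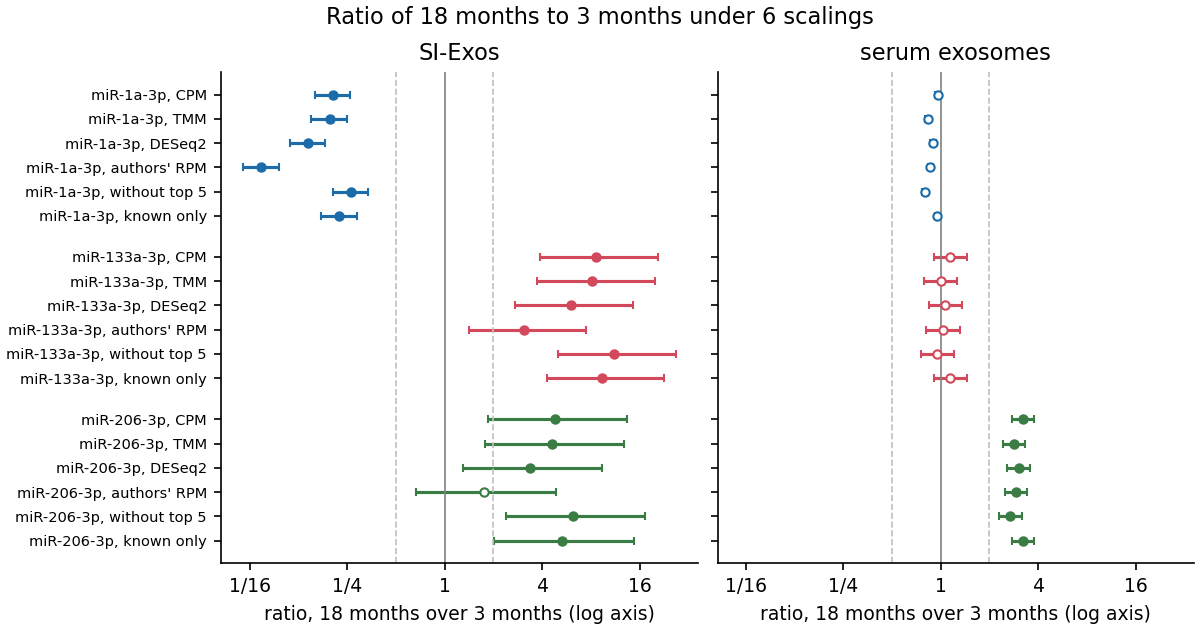
Ratio of 18 months to 3 months (log axis) of the 3 members in SI-Exos and serum exosomes under CPM and 5 other scalings, with exact 95% intervals of the counts as bars. Filled points were called and open points were not, the solid line marks a ratio of 1 and dashed lines mark 2-fold. miR-206-3p is open in SI-Exos by the authors' RPM (1.74) and filled in all other rows of both panels.

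The reads of the 3 members were next set against each other, which no scaling of the libraries can alter. The 3 members are each 22 bases long, but small RNA libraries take up different sequences with different efficiency, so the shares compare libraries and not molecules of different miRNAs. In 18m-SI-Exos miR-1a-3p made up 63.9% (54.1 to 72.9%) of the 108 reads of the 3 members, against 98.3% (97.3 to 99.0%) of 1019 reads in 3m-SI-Exos. miR-133a-3p made up 24.1% (16.4 to 33.3%) in 18m-SI-Exos, against 0.883% (0.405 to 1.67%) in 3m-SI-Exos. miR-206-3p made up 12.0% (6.57 to 19.7%) and 0.785% (0.340 to 1.54%) at 18 and 3 months. The trio in 3m-SI-Exos was therefore almost entirely miR-1a-3p.

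In 18m-serum-exos miR-1a-3p made up 86.0% (85.1 to 86.9%) of 5660 reads, against 93.9% (93.3 to 94.5%) of 5798 reads in 3m-serum-exos. miR-206-3p made up 11.3% (10.5 to 12.1%) in 18m-serum-exos, against 3.64% (3.17 to 4.15%) in 3m-serum-exos. The share of miR-133a-3p was 2.69% (2.28 to 3.14%) and 2.45% (2.07 to 2.88%) at 18 and 3 months, and these intervals overlap. The summed level of the 3 members in serum exosomes was 7273 CPM at 18 months and 6969 CPM at 3 months, whereas in SI-Exos it was 1514 CPM at 18 months and 4802 CPM at 3 months.

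**Figure D4:**
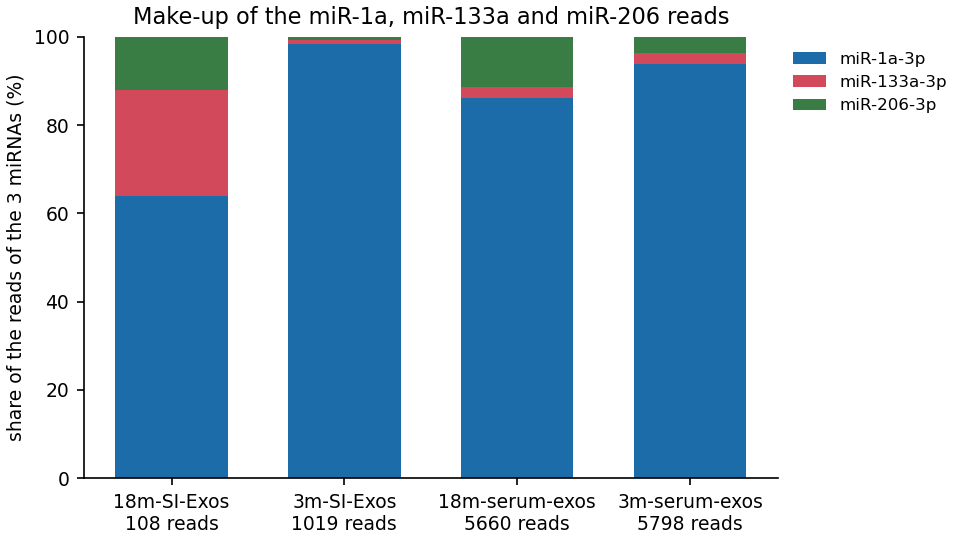
Share (%) of miR-1a-3p, miR-133a-3p and miR-206-3p among the reads of the 3 in each library, with the number of those reads under each bar. miR-133a-3p takes 24.1% in 18m-SI-Exos and 0.883 to 2.69% in the other libraries, and miR-206-3p takes 11.3 to 12.0% in both 18-month libraries and 0.785 to 3.64% in both 3-month libraries. In SI-Exos miR-206-3p had 13 reads at 18 months and 8 at 3 months, while miR-1a-3p had 69 and 1002.

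As read ratios, there were 2.65 reads of miR-1a-3p per read of miR-133a-3p in 18m-SI-Exos (1.67 to 4.34), against 111 in 3m-SI-Exos (58.4 to 244). In serum exosomes the same ratio was 32.0 (27.3 to 37.9) at 18 months and 38.3 (32.5 to 45.6) at 3 months. The odds of a read being miR-133a-3p and not miR-1a-3p were 41.6-fold higher in 18m-SI-Exos than in 3m-SI-Exos (18.0 to 105), and 1.20-fold (0.943 to 1.52) in 18m-serum-exos relative to 3m-serum-exos. miR-1a and miR-133a, which share primary transcripts, thus stood in similar proportion in both serum libraries and in different proportion in both SI-Exos libraries.

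For the pair with 1 seed, the odds of miR-206-3p against miR-1a-3p were higher at 18 months in both sources, 23.4-fold in SI-Exos (8.66 to 67.5) and 3.38-fold in serum exosomes (2.87 to 3.99). Between miR-206-3p and miR-133a-3p, the SI-Exos odds at 18 months relative to 3 months were 0.569 (0.152 to 2.13). In serum exosomes they were 2.82 (2.12 to 3.76). In SI-Exos the counts could not separate these members, with 26 reads of miR-133a-3p and 13 of miR-206-3p at 18 months (95% interval of their ratio 0.991 to 4.24), and 9 and 8 at 3 months (0.385 to 3.35). In serum exosomes miR-206-3p was the more abundant of them, with 0.238 reads of miR-133a-3p per read of miR-206-3p at 18 months (0.198 to 0.285) and 0.673 at 3 months (0.540 to 0.836). The odds were chosen after the shares had been seen.

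SI-Exos and serum exosomes were then compared at each age, from raw counts of tables that the authors made separately. At 18 months miR-1a-3p was 6.47-fold lower in SI-Exos than in serum exosomes (5.10 to 8.33), and miR-206-3p was 4.50-fold lower (2.61 to 8.50). miR-133a-3p had a ratio of SI-Exos to serum exosomes of 1.87 (1.18 to 2.84), under the threshold, and its direction turned with TMM factors, where the ratio was 0.830 (0.525 to 1.26). At this age 29.8% of 262 measured miRNAs were called lower in SI-Exos than in serum exosomes and 32.8% higher.

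At 3 months miR-133a-3p was 4.02-fold lower in SI-Exos than in serum exosomes (2.06 to 8.98) and miR-206-3p was 6.73-fold lower (3.35 to 15.8). The ratio of miR-1a-3p was 0.721 (0.674 to 0.772), under the threshold, but 0.299 and called lower with TMM factors. At this age 29.2% of 274 measured miRNAs were called lower in SI-Exos than in serum exosomes and 43.8% higher. So 2 members were called lower in SI-Exos at each age, but only miR-206-3p at both. By the authors' RPM all 3 were called lower in SI-Exos at both ages, and the ratio of miR-133a-3p at 18 months was 0.144.

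**Figure D5:**
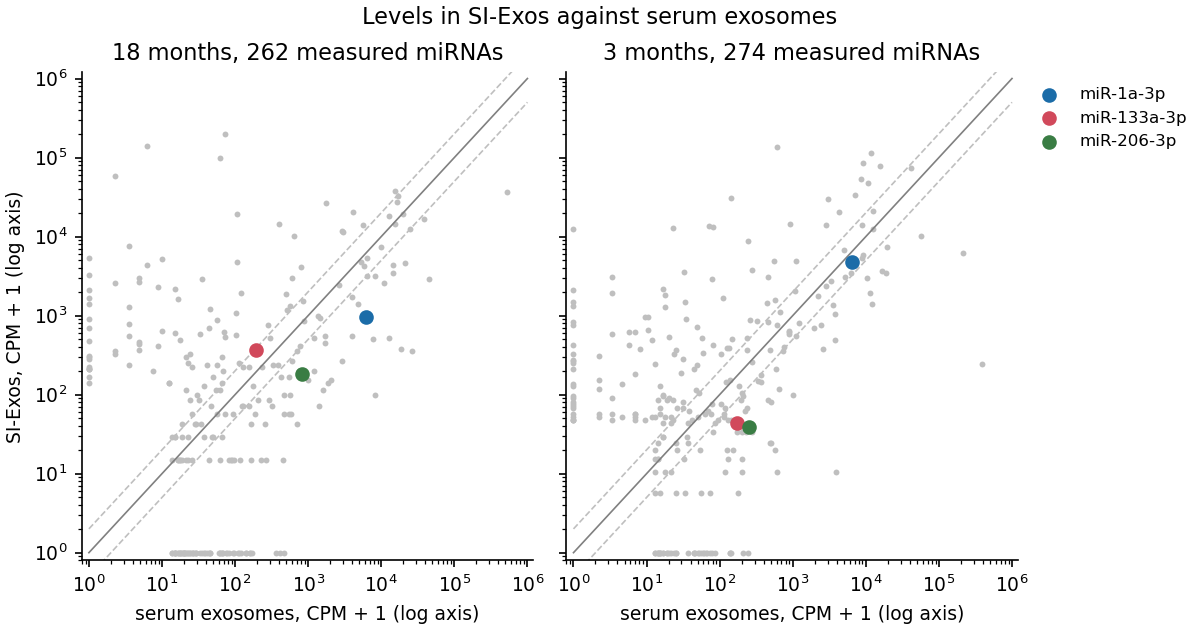
Level in SI-Exos against level in serum exosomes, as CPM + 1 on log axes, for every miRNA measured at 18 months (262) and at 3 months (274). The solid line marks equal levels and dashed lines mark 2-fold. miR-206-3p lies below the lines at both ages, miR-1a-3p below them at 18 months (ratio 0.155) and miR-133a-3p at 3 months (ratio 0.248).

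The other miRNAs of striated muscle were few. Of 18 names on the muscle list, which holds miR-1, miR-133, miR-206, miR-208 and miR-499 with their other arms, 9 have a row in either table. Reads were found for 5 of the 18 in each SI-Exos library, for 9 in 18m-serum-exos and for 6 in 3m-serum-exos. The 3 members took 92.3% and 98.9% of the reads of the list in 18m-SI-Exos and 3m-SI-Exos, and 92.1% and 92.8% in 18m-serum-exos and 3m-serum-exos. With at least 10 reads in 1 library, 3 of the list were measured in SI-Exos, all of them members, and 5 in serum exosomes, of which miR-206-3p alone was called. The median log2 ratio of the measured list was 2.24 in SI-Exos and 0.19 in serum exosomes, against -0.45 and 0.38 over all measured miRNAs. With 3 miRNAs measured, the SI-Exos median is the value of miR-206-3p alone, from 13 and 8 reads. Of the 3, only miR-1a-3p reached 10 reads at 3 months, which favours a higher median. The summed level of the list, most of it miR-1a-3p, was 1640 CPM in 18m-SI-Exos and 4854 CPM in 3m-SI-Exos.

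miR-499-5p, cut from an intron of the slow myosin gene Myh7b on chromosome 2, was the most abundant of the rest in both serum libraries and in 18m-SI-Exos. It had 443 reads in 18m-serum-exos and 419 in 3m-serum-exos, a ratio of 1.13 (0.987 to 1.29). In SI-Exos it had 7 reads at 18 months and 5 at 3 months, too few for the minimum of 10. Its serum level was 569 CPM at 18 months, below that of miR-206-3p, and 504 CPM at 3 months, above it. Relative to serum exosomes its ratio in SI-Exos was 0.172 (0.0689 to 0.358) at 18 months and 0.0468 (0.0151 to 0.110) at 3 months. So 3 of the 5 muscle miRNAs measured between the sources were called lower in SI-Exos at each age. Over all measured miRNAs 29.8% were called lower at 18 months and 29.2% at 3 months. miR-499-5p reached 10 reads only in serum exosomes, where it is high, as did miR-133a-3p and miR-206-3p at 3 months. The heart miRNA miR-208a-3p, from an intron of Myh6 on chromosome 14, had 1 read in 18m-serum-exos and 3 in 3m-serum-exos and no row in the SI-Exos table, where 3 reads would be 42.0 CPM at 18 months and 14.1 CPM at 3 months. Reads of miR-208a-5p and miR-1a-1-5p, the other arms, numbered 1 and 2 in 18m-serum-exos and 0 in 3m-serum-exos.

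miR-133b-3p differs from miR-133a-3p at position 22 alone, so reads shortened at their end could fall to either name. It had 2 reads in each 18-month library and 0 in each 3-month library. With these reads added to miR-133a-3p, its share among the 3 members moved within the interval of the main value in every library. miR-206-5p, miR-133a-5p and miR-499-3p have no row in either table.

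The miRNAs most like each member over the 4 libraries were sought among 155 others listed in both tables with at least 10 reads in a library of each, by the Euclidean distance of log2(CPM + 1) centred on its mean. For miR-1a-3p these were miR-187-3p at a distance of 0.39, miR-532-5p at 0.53 and miR-185-5p at 0.90, against a median distance of 3.45. For miR-133a-3p they were miR-29a-3p at 0.71, miR-342-3p at 0.72 and miR-574-3p at 1.29 (median 3.79). For miR-206-3p they were miR-204-5p at 0.69, miR-222-3p at 0.84 and miR-484 at 1.07 (median 4.63). In this order miR-206-3p came 18 from the nearest to miR-133a-3p, at 2.25, and 82 from the nearest to miR-1a-3p, and miR-133a-3p came 97 from the nearest to miR-1a-3p, at 3.93. The members thus were not among each other's nearest miRNAs. Several of these neighbours rest on few reads in SI-Exos, such as miR-187-3p with 1 read at 18 months and 12 at 3 months, and all of them share the same libraries and totals.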

How the data were processed

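Small RNA was sequenced from 4 exosome libraries, 1 per source and age. The labels name an MGI kit and a DNBSEQ instrument, whereas the paper's methods name a VAHTS kit and HiSeq. The authors counted reads per mature miRNA (Bowtie2 2.2.9 and GRCm38 in their processing notes, options and strand handling not given in the sources used here) and deposited these as read counts. The RPM columns that the authors deposited beside them divide by a larger total than the summed miRNA reads. The authors' columns of fold changes, p-values and FDR were not used. A miRNA that a table does not list was set to 0 reads, since neither table lists one with 0 reads in both of its libraries.

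Counts were scaled to the column sum (CPM), and ratios given exact (Clopper-Pearson) 95% intervals from the conditional binomial of the 2 counts. No p-value was made. Calls were computed for all miRNAs that reached 10 reads in either library. The call rule was run on simulated Poisson counts, the model behind the intervals. That run held no PCR copies and no variation between libraries, so it checks the computation only. The members, lists and rules were chosen with earlier results of these data known. Named were the 3 members, every miRNA of the muscle list with a row, the 3 nearest to each member and the most abundant marker of the other lists (smooth muscle, intestinal epithelium, red blood cells, liver). miR-145a-5p, miR-200b-3p and the other arms of epithelial miRNAs were named after their values were seen. Alternatives were TMM factors (edgeR 4.0.16), size factors (DESeq2 1.42.0), the authors' RPM, totals without the 5 most abundant miRNAs of either library or of known miRNAs alone, a ratio of 1.5 or 4, a minimum of 1 or 50 reads, and miR-133b-3p added to miR-133a-3p. The addition of miR-1b-5p to miR-1a-3p was chosen after seeing the data. Gene positions came from GENCODE on GRCm38. Python 3.11.15, pandas 2.3.3, numpy 2.4.6, scipy 1.17.1, matplotlib 3.10.9 and R 4.3.3 were used.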

Additional observations from a re-analysis of the deposited data

Results flagged for a closer look

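By CPM the ratio of miR-133a-3p in SI-Exos to serum exosomes was 1.87 (1.18 to 2.84) at 18 months, under the 2-fold threshold and so not called. At 3 months the ratio was 0.248 (0.111 to 0.485), called lower. This miRNA stands here because 1 contrast took opposite directions by CPM at the 2 ages with both intervals apart from 1. The difference between the ages was not tested, since each group is 1 library. With TMM factors the ratio at 18 months was 0.830. By the authors' RPM both ratios were below 1, at 0.144 and 0.0481. The SI-Exos values rest on 26 reads at 18 months and 9 at 3 months.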

How the results depend on the processing

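Of 88 alternative values of the 12 member ratios, 80 kept their call. Among these, 2 ratios of miR-133a-3p that were not called turned direction, to 0.830 between sources at 18 months with TMM and to 0.953 between ages in serum exosomes without the 5 most abundant. For miR-206-3p, the SI-Exos ratio of 18 to 3 months was 1.74 and not called by the authors' RPM, and that in serum exosomes, 3.23, was not called at 4-fold. For miR-133a-3p, the ratio of SI-Exos to serum exosomes at 18 months reversed to 0.144 by RPM, and was called higher at 2.07 with totals of known miRNAs and, at 1.87, with a 1.5-fold threshold. For miR-1a-3p, that ratio at 3 months was called lower with TMM (0.299), RPM (0.140) and totals without the 5 most abundant (0.360). The 2 muscle list miRNAs called higher in SI-Exos became 1 by RPM, 0 with at least 50 reads and 3 with at least 1 read, and the 1 in serum exosomes became 0 at 4-fold. All 12 shares stayed within their intervals with miR-133b-3p added. Relative to CPM, all log2 ratios of 18 months to 3 months in SI-Exos shift by -0.07 (TMM), -0.52 (DESeq2), -1.47 (RPM), 0.37 (without the 5 most abundant) and 0.13 (known miRNAs alone), and in serum exosomes by -0.19, -0.10, -0.15, -0.26 and -0.001. Those of SI-Exos to serum exosomes shift by up to -3.69 at 18 months and -2.37 at 3 months, both with RPM. Depth limits miR-133a-3p and miR-206-3p in SI-Exos, at 8 to 26 reads. No paired analysis was possible because each group is 1 library. The causes of these shifts were not tested.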

Other observations

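The tables also list miR-1b-5p, whose mature sequence is the exact reverse complement of bases 1 to 21 of miR-1a-3p. It had 0 reads in 18m-SI-Exos and 6 in 3m-SI-Exos, against 35 in 18m-serum-exos and 29 in 3m-serum-exos. The sources used here do not say whether the counting used strand, so reads of miR-1b-5p and reads copied from the opposite strand of miR-1a-3p cannot be told apart. With these reads added to miR-1a-3p, no call of miR-1a-3p between ages changed.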
